A study of Mus musculus with 6 samples.

Results

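The 39 genes described here make and run the lysosome. They comprise 12 cathepsins and other soluble proteases, 13 glycosidases, lipid hydrolases and soluble partners, 6 membrane proteins, 2 transcription factors of lysosomal genes and 6 subunits of the proton pump. They were taken by symbol from a list of lysosomal genes, by a rule that uses no measured value, and each matched 1 of the 23700 gene entries of the files. IDG-SW3 is a mouse bone cell line from long bones that carries a green fluorescent protein under the Dmp1 promoter and a temperature-sensitive T-antigen for expansion, and it matures in culture towards osteocytes. Cells were differentiated to day 28 in medium with 4 mM β-glycerophosphate and 50 µg/ml ascorbic acid. They were then treated for 24 hours with 50 nM bovine PTH(1-34) (PTH, n = 3) or with PBS (Control, n = 3), and polyadenylated RNA was sequenced. All 6 libraries thus come from 1 immortalised line, and the treatments were run in triplicate wells, without a statement that the wells were differentiated independently. The p-values therefore cover only the spread among these samples, which could be technical.

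Lysosomes are acidic compartments in which hydrolases break down protein, glycan and lipid. Most soluble hydrolases are tagged with mannose 6-phosphate in the Golgi, carried to the lysosome by receptors and activated by the acid that the vacuolar proton pump provides, and many of their genes carry a short E-box motif bound by the related factors TFEB and TFE3. In bone, cathepsins and acid are best known from osteoclasts, which secrete both onto the mineral, and osteocytes can also acidify and remove the matrix around them.

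Levels are given as FPKM, the number of sequenced fragments after division by transcript length and by the mapped fragments of that library, in replicates 1, 2 and 3 of a group in that order. A log2 change is the difference between groups in mean log2(FPKM + 1), PTH minus Control, which understates the change of genes of low level. A gene is called higher or lower where its limma p-value, adjusted by Benjamini-Hochberg over the 11900 entries that averaged 1 FPKM or more, is below 0.05. The PTH libraries were the deeper ones, with about 22480100 to 24481300 fragments implied by the confidence bounds in the files against 13957100 to 19042000 in Control, and their FPKM outside type I collagen summed to 466367 to 481227 against 431519 to 463721. The label was checked against osteocyte markers, which were present in Control and much lower in PTH: Dmp1 averaged 3.64 FPKM in PTH and 827 FPKM in Control, all 4 testable markers of 5 were called lower, and Fgf23 was at or near 0 in every library.

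Of the 38 lysosomal genes that passed the filter, 10 were called higher with PTH, 19 were called lower and 9 were not called. Across all tested entries the direction was the other way about, since 50.3% were called higher and 23.5% lower. The median log2 change was -0.14 over the lysosomal genes and 0.15 over all entries, and 28 of the 38 lay below the median of all entries. Most entries of this experiment differed between the groups: 73.8% were called and 78.3% had groups that did not overlap. The 29 called lysosomal genes (76.3%) and the 31 without overlap (81.6%) were thus near the background. The changes were small. At least 2-fold changes were made by 4.41% of entries upward and 4.82% downward, by the log2 change. Ctsh (lower) was the only lysosomal gene past that size by this measure. By the ratio of means Ctsc was also past it, at 2.08-fold lower. By that ratio, 2 called genes were past 1.5-fold higher and 4 past 1.5-fold lower. In bulk RNA, fewer cells of a type and less RNA per cell cannot be told apart.

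The positive median of all entries depends on the scaling of the libraries. After median-of-ratios scaling, which sets the typical gene equal between libraries, the median of all entries was 0.0026, with 34.1% called higher and 34.1% called lower, and of the lysosomal genes 8 were called higher and 24 lower, with a median of -0.30. The median of the lysosomal genes minus that of all entries was -0.29 as deposited and -0.30 after this scaling. The scaling moved the change of every tested lysosomal gene down, by values from -0.16 to -0.13. Of the called genes it thereby moved 5 higher ones (Atp6v1g1, Atp6v1h, Lamp2, Npc2 and Tfe3) and 9 lower ones (Cd63, Ctso, Ctsz, Gaa, Glb1, Grn, Gusb, Lamp1 and Lgmn) by over 1.5 times, the higher ones towards or past 0 and the lower ones away from it. Summed over the list, the lysosomal genes held 1.00%, 0.958% and 1.00% of all FPKM outside type I collagen in PTH against 1.04%, 1.06% and 1.04% in Control. These shares did not overlap, but the summed FPKM did, at 4470 to 4826 in PTH and 4574 to 4821 in Control. Cd63, the most abundant, had 1256, 1230 and 1298 FPKM in PTH against 1477, 1360 and 1412 FPKM in Control. The gap between the shares depends on this 1 gene, since the shares of PTH and Control overlap when Cd63 is left out.

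**Figure D1:**
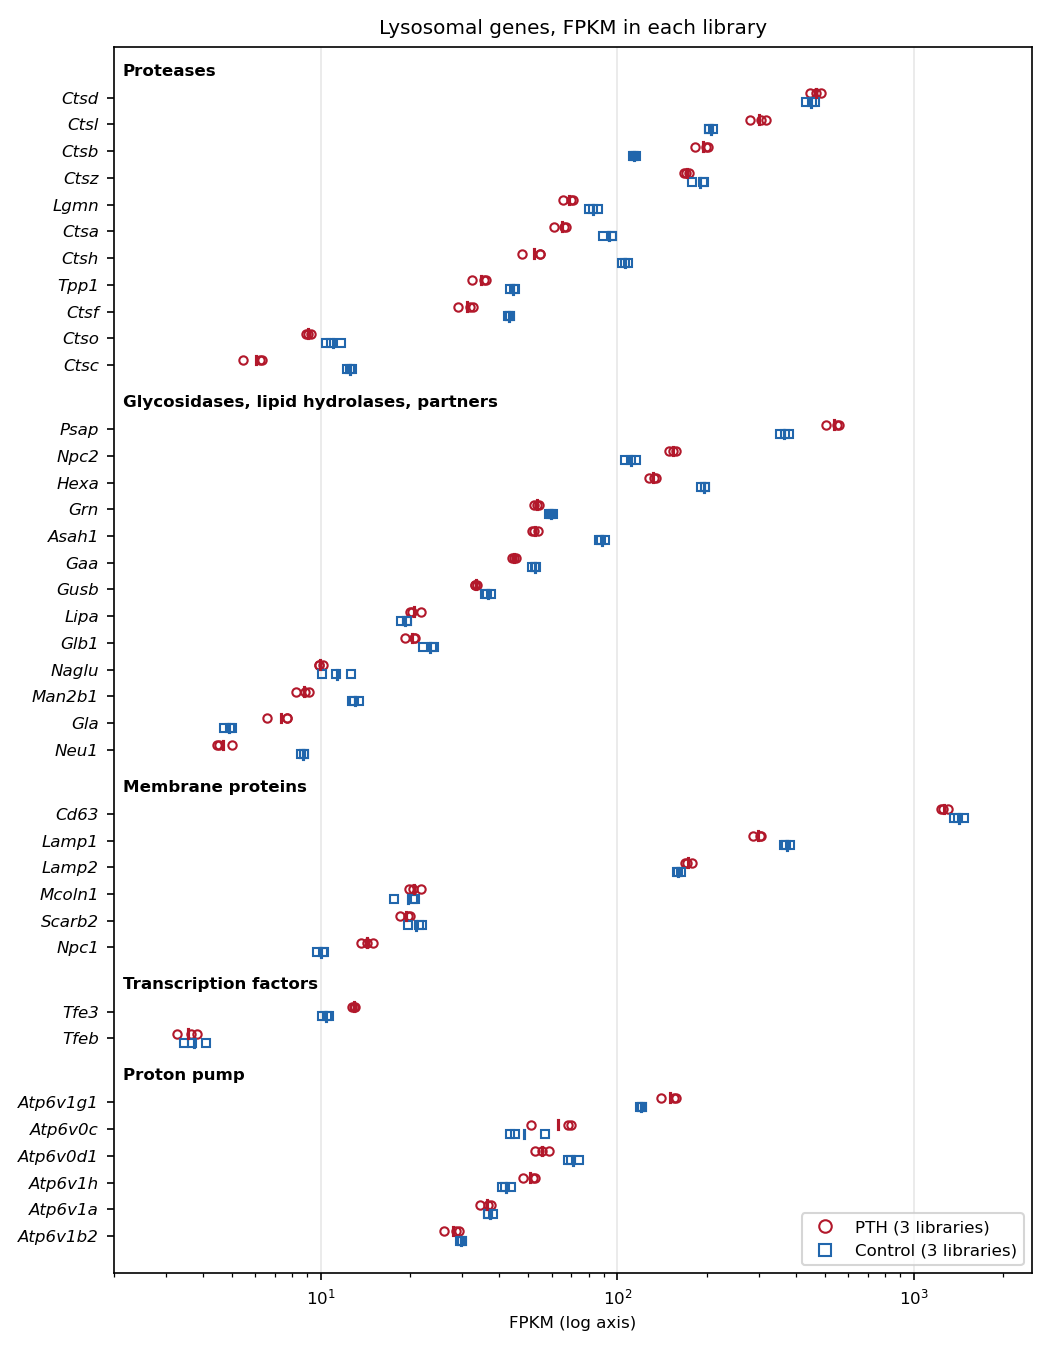
FPKM of the 38 tested lysosomal genes on a log axis, grouped by role. Circles are the 3 PTH libraries, squares the 3 Control libraries, and short vertical lines the group means; levels run from Tfeb, with means of 3.58 FPKM in PTH and 3.74 FPKM in Control, to Cd63, with 1261 FPKM in PTH and 1416 FPKM in Control, and the libraries of a group lie close together for most genes.

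The levels spanned a wide range. Cd63, a tetraspanin of late endosomes and exosomes, averaged 1261 ± 34.5 FPKM in PTH and 1416 ± 58.6 FPKM in Control (SD, n = 3 each). Psap, which encodes prosaposin, the precursor of the saposins that present lipids to hydrolases, and Ctsd, the main aspartic protease of lysosomes, followed it in PTH at 538 and 466 FPKM. At the low end, 7 of the 38 genes averaged under 10 FPKM in PTH and 3 did so in Control. The fragments implied by the confidence bounds were at least 98 for every tested gene in every library. Tfeb had the fewest, at 98 to 183 in Control, so counting error weighs most on genes of such low level. Ctss, the cathepsin of antigen-presenting cells, was listed at 0 in all 6 libraries and was not tested.

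Among the proteases, cathepsins B and L were higher with PTH while most others were lower. Of the 11 tested, 2 were called higher, 8 lower and 1 was not called, with a median log2 change of -0.27. Ctsb (mm9 chr14:63741299-63764760), a cysteine protease with endopeptidase and exopeptidase activity, had 199.5, 183 and 202 FPKM in PTH against 115, 113 and 114 FPKM in Control. Every PTH library was well above every Control library, and the change was 0.77 (SE 0.0438, limma adjusted p = 8.95e-06), the largest increase of the list. Ctsl, the broad cysteine endopeptidase, had 304, 281 and 318 FPKM in PTH against 204, 204 and 211 FPKM in Control. Its groups did not overlap either, and the change was 0.54 (SE 0.0506, limma adjusted p = 9.59e-05).

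Ctsh and Ctsc moved the other way. Ctsh (mm9 chr9:89949105-89970933), an aminopeptidase of the same cysteine protease family, had 55.0, 47.7 and 54.7 FPKM in PTH against 108, 103 and 106 FPKM in Control. Every PTH library was far below every Control library, with a change of -1.005 (SE 0.0591, limma adjusted p = 1.03e-05). Ctsc, the dipeptidyl peptidase that activates granule proteases of immune cells, had 6.25, 5.48 and 6.34 FPKM in PTH against 12.5, 12.7 and 12.3 FPKM in Control, a change of -0.95 (SE 0.0536, limma adjusted p = 8.53e-06). By the ratio of means it was 2.08-fold lower in PTH, which the added pseudocount brings to under 2-fold. The mix of cysteine cathepsins was therefore different between groups: the Ctsl to Ctsh ratio within a library averaged 5.74 ± 0.189 in PTH and 1.95 ± 0.0547 in Control, and the Ctsb to Ctsh ratio 3.72 ± 0.106 in PTH and 1.07 ± 0.0132 in Control (SD, n = 3 each).

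The remaining proteases fell by less or did not pass. Ctsa, a serine carboxypeptidase that also protects glycosidases within a complex, had 66.0, 61.1 and 67.3 FPKM in PTH against 95.8, 89.6 and 95.9 FPKM in Control, a change of -0.53 (limma adjusted p = 8.33e-05). Ctsf, a cysteine cathepsin, had 31.8, 29.0 and 32.6 FPKM in PTH against 42.8, 43.3 and 43.4 FPKM in Control, a change of -0.46 (limma adjusted p = 0.000142). Both genes had groups that did not overlap. Tpp1, the tripeptidyl peptidase lost in a childhood neuronal storage disease, averaged 34.6 FPKM in PTH and 44.4 FPKM in Control, a change of -0.35. Lgmn, the asparaginyl endopeptidase that processes other cathepsins, averaged 68.7 FPKM in PTH and 83.0 FPKM in Control, a change of -0.27. The groups of both did not overlap, with limma adjusted p of 0.00045 for Tpp1 and 0.00118 for Lgmn. Ctso changed by -0.25 and Ctsz, a carboxypeptidase, by -0.15, with limma adjusted p of 0.00216 and 0.0201. The Ctsz call was lost without PTH replicate 1, PTH replicate 2, Control replicate 1 or Control replicate 3 (change -0.14, -0.14, -0.13 and -0.12, limma adjusted p from 0.0543 to 0.0721). Ctsd averaged 466 ± 20.0 FPKM in PTH and 451 ± 16.5 FPKM in Control (SD, n = 3 each), its groups overlapped, and its change of 0.05 had a 95% interval of -0.06 to 0.16. After median-of-ratios scaling the change of Ctsd was -0.12 and was called lower (limma adjusted p = 0.0212).

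The glycosidases, lipid hydrolases and their partners also moved in both directions. Of the 13, 3 were called higher, 8 lower and 2 were not called, with a median of -0.16. Those that were higher were Psap, Npc2 and Gla. Psap had 552, 505 and 558 FPKM in PTH against 378, 352 and 366 FPKM in Control, with no overlap and a change of 0.56 (SE 0.0513, limma adjusted p = 8.93e-05). Npc2, the soluble protein that hands cholesterol to the membrane protein NPC1, had 154, 149 and 158 FPKM in PTH against 116, 106 and 111 FPKM in Control, a change of 0.47 (limma adjusted p = 7.79e-05), which was 0.30 after median-of-ratios scaling. Both of these abundant transcripts were higher in each PTH library than in any Control library. Gla, the α-galactosidase deficient in Fabry disease, had 7.69, 6.60 and 7.72 FPKM in PTH against 4.95, 5.01 and 4.70 FPKM in Control, a change of 0.50 (limma adjusted p = 0.00037), again without overlap.

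The largest falls in this class were in Neu1 and Asah1. Neu1, the lysosomal sialidase, had 4.53, 4.46 and 5.01 FPKM in PTH against 8.75, 8.59 and 8.79 FPKM in Control, a change of -0.78 (SE 0.0454, limma adjusted p = 9.86e-06). Asah1, the acid ceramidase, had 52.3, 51.6 and 53.8 FPKM in PTH against 90.8, 86.7 and 87.7 FPKM in Control, a change of -0.74 (SE 0.0320, limma adjusted p = 2.52e-06). The libraries of each group were tight for both genes and far from those of the other group. Hexa, the α subunit of β-hexosaminidase that degrades GM2 ganglioside, had 133, 128 and 134 FPKM in PTH against 197, 191 and 197 FPKM in Control, a change of -0.56 (limma adjusted p = 9.84e-06). Man2b1, the lysosomal α-mannosidase, had 8.86, 8.27 and 9.12 FPKM in PTH against 12.7, 13.5 and 12.9 FPKM in Control, a change of -0.53 (limma adjusted p = 5.28e-05). Neither had overlapping groups.

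Smaller falls were called in the other 4 genes of this class that were lower. Gaa, the α-glucosidase that degrades lysosomal glycogen, changed by -0.23, Glb1, the β-galactosidase, by -0.20, Grn, which encodes progranulin, by -0.16 and Gusb, the β-glucuronidase, by -0.13, with limma adjusted p from 0.000375 for Gaa to 0.00716 for Glb1. For Gusb, the smallest of the falls, the group means were 33.3 FPKM in PTH and 36.6 FPKM in Control, so the call rests on tight replicates. Lipa, the acid lipase that frees cholesterol from its esters, averaged 20.7 FPKM in PTH and 19.2 FPKM in Control, without overlap, with a 95% interval of the change of -0.0038 to 0.20 and a limma adjusted p of 0.0739. The change of Lipa was 0.10 on deposited FPKM and -0.06 after median-of-ratios scaling. Naglu, a glucosaminidase of heparan sulfate breakdown, had 10.1, 9.83 and 9.89 FPKM in PTH against 12.6, 10.1 and 11.2 FPKM in Control, which overlapped, with a change of -0.16 (limma adjusted p = 0.0839). The Control libraries decided the Naglu value: without replicate 2, the low one, the change was -0.24 (limma adjusted p = 0.0107), and without replicate 1, the high one, it was -0.09 (limma adjusted p = 0.19).

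Genes whose products work together are set side by side here, a grouping made after their values were seen. Ctsa, Neu1 and Glb1, whose proteins form 1 complex, were all called lower, though by unequal amounts, and the Ctsa to Neu1 ratio within a library averaged 13.9 ± 0.581 in PTH and 10.8 ± 0.288 in Control (SD, n = 3 each). Hexa was lower together with Gm2a, the activator that lifts GM2 ganglioside to the enzyme, at 6.94 FPKM in PTH and 14.8 FPKM in Control. Npc1 and Npc2 were both higher by nearly the same amount, and their ratio averaged 10.8 ± 0.425 in PTH and 11.1 ± 0.301 in Control. Psap and Hexa, of which the Psap product feeds lipid to several hydrolases, parted: their ratio averaged 4.08 ± 0.120 in PTH and 1.87 ± 0.0386 in Control.

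Of the 6 membrane proteins, 2 were called higher, 2 lower and 2 were not called, and the median was -0.02. The paired structural glycoproteins of the lysosomal membrane moved apart. Lamp1 had 302, 286 and 305 FPKM in PTH against 371, 365 and 381 FPKM in Control, with no overlap and a change of -0.32 (SE 0.0385, limma adjusted p = 0.000298). Lamp2, which also serves chaperone-mediated autophagy, had 172, 169 and 178 FPKM in PTH against 164, 158 and 160 FPKM in Control, a change of 0.11 (SE 0.0334, limma adjusted p = 0.0241) that turned to -0.06 after median-of-ratios scaling and was called under none of the 4 scalings tried. The Lamp2 call was also lost without PTH replicate 1, PTH replicate 3 or Control replicate 3 (0.11, 0.09 and 0.10, limma adjusted p from 0.0645 to 0.0791). Their order within a library was the same in all 6, and the Lamp1 to Lamp2 ratio, which a common factor per library leaves as it is, averaged 1.72 ± 0.0325 in PTH and 2.32 ± 0.0585 in Control (SD, n = 3 each). Npc1, the cholesterol exporter, had 15.0, 13.7 and 14.3 FPKM in PTH against 10.1, 9.73 and 10.2 FPKM in Control, a change of 0.47 (SE 0.0414, limma adjusted p = 7.08e-05) with no overlap. Cd63 changed by -0.17 (limma adjusted p = 0.0171), a call lost without PTH replicate 1, PTH replicate 2, Control replicate 1 or Control replicate 3 (changes from -0.17 to -0.14, limma adjusted p from 0.0529 to 0.071). Scarb2, the receptor that carries glucocerebrosidase to the lysosome, averaged 19.4 FPKM in PTH and 21.0 FPKM in Control and was not called (-0.11, limma adjusted p = 0.0967), but without Control replicate 2 it was (-0.15, limma adjusted p = 0.0202). Mcoln1, the calcium channel of the lysosomal membrane, had 20.4, 19.8 and 21.8 FPKM in PTH against 20.5, 17.6 and 20.8 FPKM in Control. Its groups overlapped, and the 95% interval of its change of 0.07 was -0.09 to 0.24, with the sign turned under median-of-ratios scaling.

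**Figure D2:**
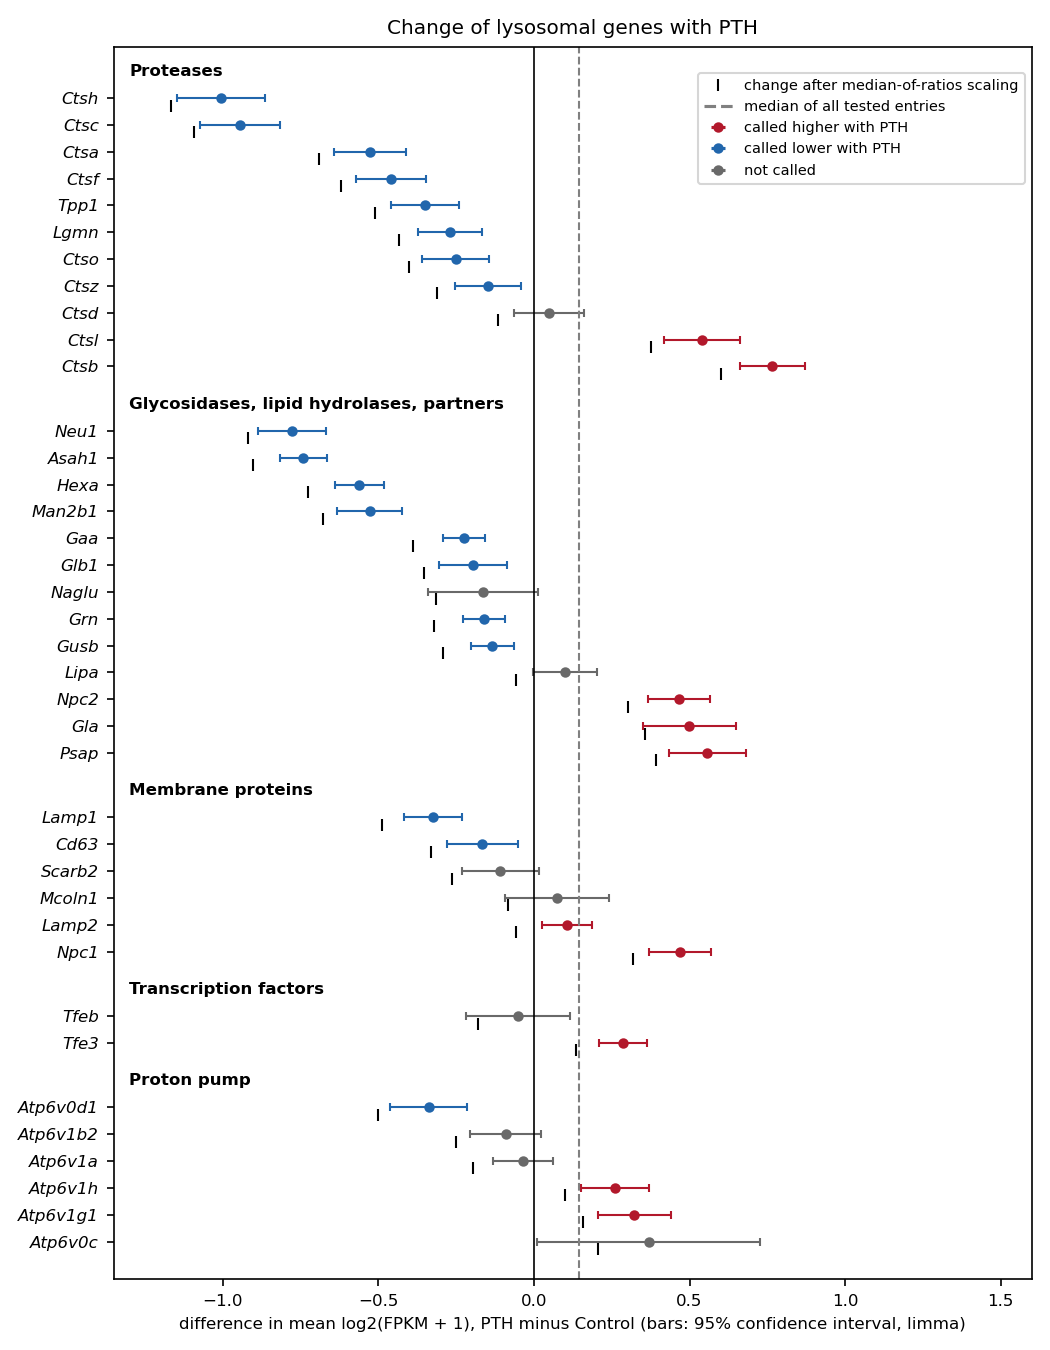
Difference in mean log2(FPKM + 1), PTH minus Control, of each tested lysosomal gene with its 95% limma interval, by role. Red points were called higher, blue points lower and grey points were not called, the black tick is the change after median-of-ratios scaling and the dashed line the median of all tested entries at 0.15; Ctsb at 0.77 and Ctsh at -1.005 mark the ends.

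The transcription factors of the lysosomal genes were low in level. Tfeb had 3.28, 3.64 and 3.81 FPKM in PTH against 3.45, 4.10 and 3.69 FPKM in Control. The groups overlapped, and the change of -0.05 had a 95% interval of -0.22 to 0.11 (limma adjusted p = 0.523). Tfe3 had 13.0, 13.0 and 12.7 FPKM in PTH against 10.5, 10.1 and 10.7 FPKM in Control, without overlap and with a change of 0.29 (SE 0.0325, limma adjusted p = 0.000238), which was 0.13 after median-of-ratios scaling (limma adjusted p = 0.00494). Neither value speaks to the activity of these proteins, which is set by phosphorylation and entry into the nucleus.

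The proton pump has a cytosolic part, V1, that splits ATP and a membrane part, V0, that passes protons. Of the 6 listed subunits, 2 were called higher, 1 lower and 3 were not called. Atp6v1g1, a stalk subunit of V1, had 155, 140.2 and 158 FPKM in PTH against 121, 120.7 and 119 FPKM in Control, a change of 0.32 (limma adjusted p = 0.000927) that was 0.16 after median-of-ratios scaling (limma adjusted p = 0.0187). Atp6v1h, a regulatory subunit of V1, had 51.8, 48.0 and 52.5 FPKM in PTH against 43.9, 41.8 and 41.0 FPKM in Control, a change of 0.26 (limma adjusted p = 0.00187) that was 0.10 and no longer called after median-of-ratios scaling (limma adjusted p = 0.0672). Neither had overlapping groups. Atp6v0d1, the subunit that links V0 to the central stalk, had 55.6, 52.6 and 58.9 FPKM in PTH against 74.0, 67.9 and 69.9 FPKM in Control, a change of -0.34 (limma adjusted p = 0.00104). It was the one called lower of the 6, and the Atp6v1g1 to Atp6v0d1 ratio within a library averaged 2.71 ± 0.0675 in PTH and 1.71 ± 0.0710 in Control (SD, n = 3 each).

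The A and B subunits, which form the catalytic ring of the pump, were close between groups on deposited FPKM. Atp6v1a, the catalytic A subunit, had 36.6, 34.4 and 37.6 FPKM in PTH against 38.2, 36.6 and 36.5 FPKM in Control, with an interval of the change of -0.13 to 0.06. Atp6v1b2, the B subunit that completes the catalytic ring, had 28.5, 25.9 and 29.3 FPKM in PTH against 29.8, 29.4 and 30.0 FPKM in Control, with an interval of -0.20 to 0.02. Neither was called on deposited FPKM, while after median-of-ratios scaling both were called lower, at -0.19 and -0.25 (limma adjusted p = 0.00263 and 0.00199). Atp6v0c, the proteolipid that forms the proton-carrying ring, had 69.9, 51.0 and 68.3 FPKM in PTH against 45.0, 57.0 and 43.5 FPKM in Control. PTH replicate 2 was low and Control replicate 2 high, so the groups overlapped and the change of 0.37 was not called (limma adjusted p = 0.0599), but it was called without PTH replicate 2 (0.51, limma adjusted p = 0.0124) and without Control replicate 2 (0.49, limma adjusted p = 0.0256). Its value is uncertain, because the transcribed pseudogene Atp6v0c-ps2 is listed at the same place with 113, 124 and 128 FPKM in PTH against 129, 102 and 129 FPKM in Control. Summed, the 2 entries had 183, 175 and 197 FPKM in PTH against 174, 159 and 173 FPKM in Control, and how fragments were divided between them was not tested.

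**Figure D3:**
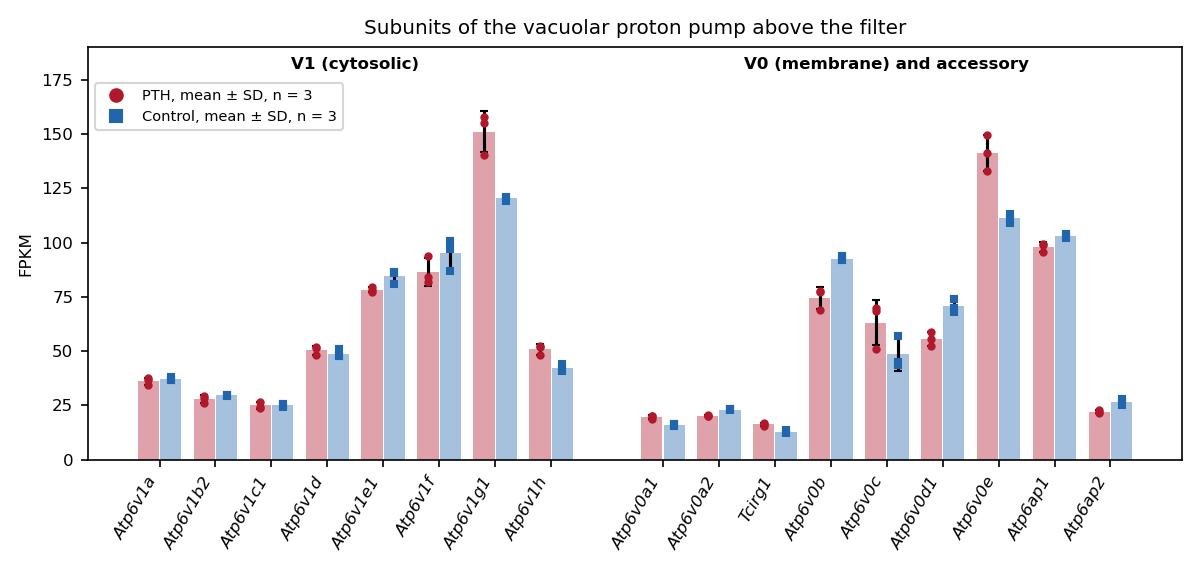
FPKM of the 17 proton pump genes above the filter, V1 subunits at left and V0 and accessory subunits at right. Bars are group means with SD (n = 3), PTH in red left of Control in blue, and points are libraries; Atp6v1g1 and Atp6v0e were higher with PTH, Atp6v0d1 and Atp6v0b were lower, and the 2 Atp6v0c groups overlap.

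The other subunits were mixed in the same way. Of 19 further pump genes 11 passed the filter, with 3 called higher, 4 lower and a median of -0.07. Atp6v0e averaged 141 FPKM in PTH and 111 FPKM in Control, and the V0 a-subunit genes Tcirg1 and Atp6v0a1 averaged 16.3 and 19.6 FPKM in PTH against 12.9 and 16.1 FPKM in Control. Lower were Atp6v0b at 74.6 FPKM in PTH and 92.6 FPKM in Control, Atp6ap2 (-0.25), Atp6v0a2 (-0.18) and Atp6v1e1 (-0.11). After median-of-ratios scaling, 1 of the 6 listed and 2 of the 11 other subunits were called higher, and 3 of the 6 and 8 of the 11 lower.

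The genes of acid bone resorption that meet this list were not of the same direction. Ctsk, the collagen-degrading cathepsin of osteoclasts, averaged 306 ± 5.44 FPKM in PTH and 263 ± 6.71 FPKM in Control, a change of 0.22 (limma adjusted p = 0.00105) that was 0.06 and not called after median-of-ratios scaling (limma adjusted p = 0.0797). Acp5, tartrate-resistant acid phosphatase, averaged 1.78 ± 0.555 FPKM in PTH and 3.04 ± 0.467 FPKM in Control, a change of -0.55 (limma adjusted p = 0.0152). Both had groups that did not overlap. Clcn7, the chloride transporter of the same membrane, averaged 17.6 FPKM in PTH and 16.0 FPKM in Control, a change of 0.13 (limma adjusted p = 0.0358) that turned to -0.03 after median-of-ratios scaling, and Atp6v0d2, the osteoclast form of the d subunit, was under the filter at 0.424 FPKM in PTH and 0.110 FPKM in Control. Of 15 macrophage and osteoclast markers found, 6 passed the filter, 3 called higher (Ctsk, Cd68 and Cd14) and 3 lower (Lyz2, Acp5 and Fcer1g), and after median-of-ratios scaling 2 higher, without Ctsk, and 3 lower. The changes of these 6 ran from -1.20 to 1.09, with 1 called at least 2-fold higher and 1 at least 2-fold lower. Of the markers under the filter, Emr1, Tyrobp, Calcr and Dcstamp were listed at 0 in all 6 libraries. Ptprc and Aif1 were at 0 in all PTH libraries and at most 0.0586 FPKM in Control, and Csf1r averaged 0.226 FPKM in PTH and 0.359 FPKM in Control. Itgam and Oscar were also under the filter, and their values are not reported here. Of the 5 testable adipocyte markers all 5 were called lower, with a median log2 change of -1.86. Of the 4 testable chondrocyte markers, 3 were called lower and 1 higher (median -1.78), and of the 6 osteoblast markers 4 were called lower and 2 were not called (median -0.89). The part of any shift in cell types in these results was not tested.

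Wider lists of lysosomal genes were read in the same way. Of 32 other lysosomal enzymes, 8 were called higher and 22 lower, with a median of -0.25 (5 and 23 after median-of-ratios scaling). Prcp, a lysosomal carboxypeptidase, had the largest fall, with 3.56, 4.12 and 3.65 FPKM in PTH against 16.4, 16.1 and 16.8 FPKM in Control (-1.87, limma adjusted p = 3.08e-07), followed among those named here by Gm2a (-0.995) and Manba (-0.82), a β-mannosidase. Pla2g15, a lysosomal phospholipase, had the largest increase at 0.83, followed by Hyal2 (0.72), Ppt2 (0.48) and Galc (0.47), the galactosylceramidase. The other 25 tested membrane proteins were more evenly split, with 11 called higher, 9 lower and a median of -0.01 (7 and 13 after median-of-ratios scaling). The ends were Mcoln2, a relative of Mcoln1, at 2.69 FPKM in PTH and 0.728 FPKM in Control, and Slc36a1, an amino acid exporter, at 4.25 FPKM in PTH and 11.4 FPKM in Control. Between the calcium channels of the membrane, Tpcn2 changed by 0.57 and Tpcn1 by -0.77.

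**Figure D4:**
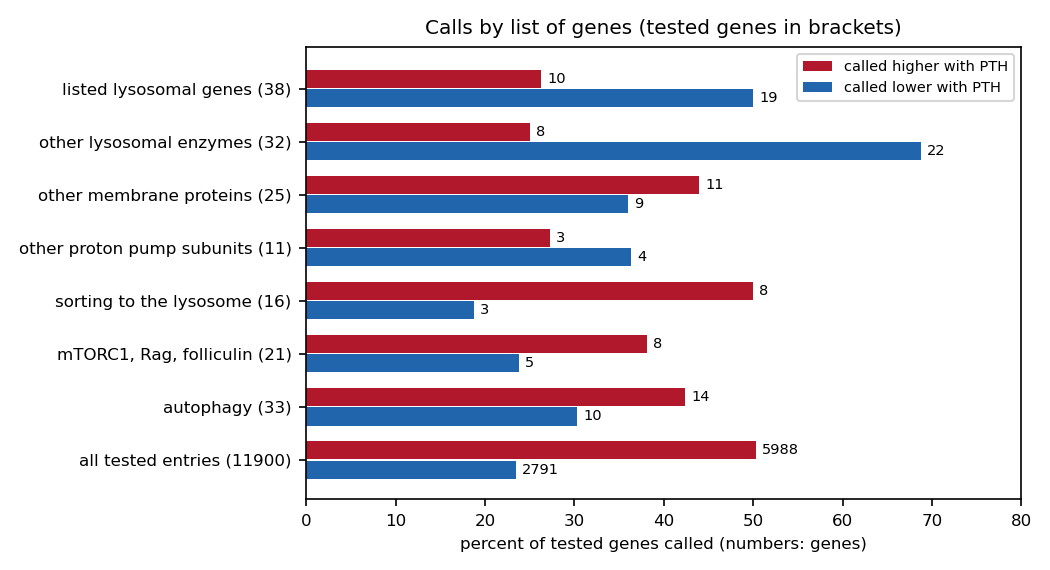
Percent of tested genes called higher (red, upper bar) and lower (blue, lower bar) with PTH in each list, with the number of genes at the bar and the number tested in brackets. The listed lysosomal genes (10 higher, 19 lower) and the other lysosomal enzymes (8 higher, 22 lower) lean lower, while all tested entries lean higher (50.3% against 23.5%).

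The genes that deliver, restrain or control the hydrolases were mixed. Of 16 genes of mannose 6-phosphate and sortilin sorting, 8 were called higher and 3 lower (median 0.09), a split that was 2 higher and 8 lower after median-of-ratios scaling. Sort1, the sorting receptor sortilin, stood apart with 1.47, 1.57 and 1.38 FPKM in PTH against 11.5, 11.7 and 11.7 FPKM in Control (-2.35, limma adjusted p = 5.14e-08). M6pr, the cation-dependent mannose 6-phosphate receptor, averaged 70.2 FPKM in PTH and 48.4 FPKM in Control (0.53), while Gga2, an adaptor for both receptors, changed by -0.76 and Igf2r, the second mannose 6-phosphate receptor, was not called at 26.2 FPKM in PTH and 25.4 FPKM in Control. Among the 4 testable cysteine protease inhibitors, Cst3, which encodes the secreted cathepsin inhibitor cystatin C, averaged 715 ± 38.7 FPKM in PTH and 1097 ± 61.5 FPKM in Control (-0.62), and Serpinb6a had 199, 194 and 207 FPKM in PTH against 109.7, 102 and 107 FPKM in Control (0.91). Of 21 genes that control TFEB through mTORC1, the Rag GTPases and folliculin, 8 were called higher and 5 lower (3 and 8 after median-of-ratios scaling), with the largest fall in Flcn (folliculin) at -0.44 and the largest increase in Mlst8 at 0.38. Of 33 autophagy genes, 14 were called higher and 10 lower (8 and 14 after that scaling), with Map1lc3b at 127 FPKM in PTH and 95.5 FPKM in Control and Optn at 13.9 FPKM in PTH and 20.5 FPKM in Control.

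The promoters are shown because the E-box is the element that TFEB and TFE3 bind in lysosomal genes. RefSeq promoters (GRCm38.p6, 250 bases before and 50 from the start site) were read for 32 of the 39 genes. The 7 without one were Ctsb, Npc1, Atp6v1h and Atp6v1g1, called higher, Ctsh and Asah1, called lower, and Atp6v1b2, not called. The 32 genes had 40 promoters, and a motif in any promoter counted for the gene. Ctsa and Lgmn had 2 promoters each, and the upstream promoter of each held no E-box. The E-box CACGTG, which reads the same on both strands, was present for 13 of the 32 (40.6%), against 8.09% of 27025 genes with a promoter and 12.2% of the 8311 of them that were tested. Of the longer forms that contain it, TCACGTG on either strand was present for 11 (34.4%, against 4.29% of all genes and 7.24% of those tested), TCACGTGA for 6 (18.8%, against 1.12% and 2.45%) and the full palindrome known as the CLEAR element for 0 (against 0.37% and 0.89%). Searched beside them, the shorter TGACG on either strand was present for 12 (37.5%, against 23.0% of all genes and 36.3% of those tested), and the cyclic AMP response element TGACGTCA, also its own reverse complement, for Gusb alone (3.13%, against 2.03% of all genes and 3.69% of those tested). Of the 20 E-boxes, 15 began within 150 bases before the start site. The most were in Lamp1 with 4, and they are printed with those of Ctsa, a gene that was lower with PTH, and Gla, a gene that was higher, with E-boxes in capitals (chr8:13158911-13159210, plus strand; chr2:164833523-164833822, plus strand; chrX:134600956-134601255, minus strand).
Lamp1: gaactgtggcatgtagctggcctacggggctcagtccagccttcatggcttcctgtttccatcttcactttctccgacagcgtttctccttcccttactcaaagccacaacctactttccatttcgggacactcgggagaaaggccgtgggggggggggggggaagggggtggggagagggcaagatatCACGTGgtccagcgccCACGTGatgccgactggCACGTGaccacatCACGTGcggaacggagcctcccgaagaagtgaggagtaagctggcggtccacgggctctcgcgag
Ctsa: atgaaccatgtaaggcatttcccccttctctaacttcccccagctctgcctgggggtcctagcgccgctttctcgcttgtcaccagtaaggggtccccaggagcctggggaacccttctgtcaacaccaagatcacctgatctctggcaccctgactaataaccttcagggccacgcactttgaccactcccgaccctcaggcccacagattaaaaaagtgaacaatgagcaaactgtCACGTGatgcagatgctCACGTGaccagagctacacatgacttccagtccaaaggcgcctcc
Gla: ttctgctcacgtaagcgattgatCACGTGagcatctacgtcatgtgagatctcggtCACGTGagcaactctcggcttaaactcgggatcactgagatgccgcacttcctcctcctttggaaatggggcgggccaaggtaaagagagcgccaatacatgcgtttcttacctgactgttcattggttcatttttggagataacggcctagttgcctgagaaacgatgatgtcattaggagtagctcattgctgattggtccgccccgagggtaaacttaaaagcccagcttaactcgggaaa

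Calls in both directions were found with and without an E-box. Of the 13 genes with one, 2 were called higher (Ctsl and Gla), 7 lower and 4 were not called, with a median of -0.20, and of the 18 tested genes whose promoters held none, 4 were called higher, 10 lower and 4 were not called, with a median of -0.14. The changes ran from -0.53 to 0.54 with an E-box and from -0.95 to 0.56 without. Of the 2 called-higher genes among these 13, Ctsl had its E-box at 236 bases before the start site and Gla at 227 and 194. Those of the 7 lower genes lay between 140 bases before the start site, in Gaa, and the sixth base after it, in Ctsa. Ctsd, not called on deposited FPKM but called lower after median-of-ratios scaling, had E-boxes at 245 and at 98 bases before the start site. The first was farther out than those of Ctsl and Gla, and the second lay within the range of the lower genes. Mcoln1 (71 and 45 bases), Naglu (73) and Atp6v1a (131), also not called on deposited FPKM, had theirs within that range too. Mcoln1 had a positive change of 0.07, so E-boxes near the start site were not particular to the lower genes. Neither comparison covers the 7 genes without a promoter, among them Ctsb and Ctsh, the ends of the list. The places were compared after the values were seen, in few genes, and a match to the letters is a description only.

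**Figure D5:**
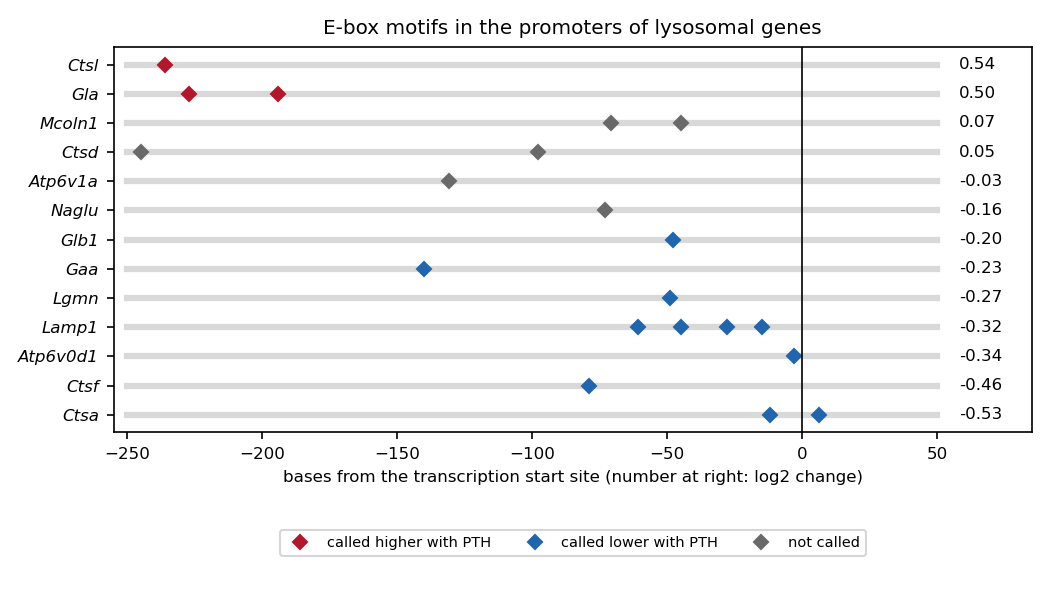
Place of each E-box (diamond) in the promoters of 13 lysosomal genes, in bases from the transcription start site, with the genes ordered by log2 change (number at right) and grey bars for the window read. The 2 genes called higher (red), Ctsl and Gla, have E-boxes at 236, 227 and 194 bases before the start site. The 7 called lower (blue) have them nearer to it. Of the genes not called (grey), Ctsd has them at 245 and 98 bases. Mcoln1 (71 and 45), Naglu (73) and Atp6v1a (131) have them within the range of the lower genes.

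Replicates of a group were close for these genes. The coefficient of variation had a median of 4.65% over the lysosomal genes in PTH and 2.89% in Control, against 3.93% in PTH and 4.84% in Control over all tested entries. Within PTH the libraries differed in step: replicate 2 was the lowest of the 3 for 30 of the 38 lysosomal genes, and replicate 3 the highest for 30. Within Control, replicate 2 was the lowest for 26 of the 38. Over all tested entries these libraries were the lowest of their group for 42.5% (PTH replicate 2) and 56.8% (Control replicate 2), and without PTH replicate 2 the list had 11 higher and 17 lower calls, and without Control replicate 2 it had 11 and 21. For 6 of the lysosomal genes the locus of another tested entry overlaps in the files. These are Ctsa with Pltp and Neurl2, Ctsb with Fdft1, Ctsz with Th1l, Npc1 with 3110002H16Rik, Glb1 with Tmppe and Atp6v0c with its pseudogene. No strand setting is given in the sources used here and exons were not compared, so how far such pairs share reads was not tested.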

How the data were processed

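RNA of 6 samples (3 PTH, 3 Control, grouped and numbered by their labels) was sequenced, and the authors deposited FPKM per gene and library with confidence bounds, made per the labels with CASAVA 1.8, TopHat, Bowtie2 and SAMtools on mm9 (other versions, annotation and strand setting not given in the sources used here). A Cuffdiff table of group FPKM, log2 fold changes, p and q values was not used. Col1a1 and Col1a2, without an estimate in Control, were left out. log2(FPKM + 1) of the 11900 entries with mean FPKM of at least 1 was fitted with limma 3.58.1 (R 4.3.3; group only, eBayes with a variance trend; tested on simulated data), two-sided, with Benjamini-Hochberg adjustment over all entries. Fragments per gene were derived from the bounds and cover counting error only. Alternatives were a pseudocount of 0.1, a minimum of 5 FPKM or none, TPM, median-of-ratios, quantile and top 10 loci rescaling, no trend, a replicate block, each library left out, and, chosen after seeing the data, no entries with a failed estimate.

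Library values are given for the 8 called genes of largest change in each direction and for the transcription factors, LAMPs, channel, Npc1 and pump, and up to 4 called genes per direction are named from wider lists, some of which are not reported here. The genes and lists were chosen with earlier results of these data known. The promoter search, ratios and partner groups were chosen after values were seen, as was naming Igf2r and Csf1r and printing Prcp, Sort1 and Serpinb6a by library.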

Additional observations from a re-analysis of the deposited data

How the results depend on the processing

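No alternative moved the count of lysosomal genes called (10 higher, 19 lower) or of all entries called (8779) by over 1.5 times. Leaving out each library in turn gave 9 to 11 higher, 17 to 21 lower and 8093 to 8484 entries. The 4 scalings gave 8 to 9 higher and 23 to 24 lower, and higher calls were 68.2% of all calls as reported but 61.6% with TPM, 55.9% with quantile normalization, 53.3% with rescaling outside the 10 highest loci and 50.0% with median-of-ratios scaling. The log2 change turned sign for Ctsd (-0.0219 with TPM, -0.116 with median-of-ratios, -0.138 with quantile, -0.0891 with rescaling), Lamp2 (-0.0567 with median-of-ratios, -0.0299 with rescaling), Lipa (-0.0574 with median-of-ratios, -0.0597 with quantile, -0.0317 with rescaling) and Mcoln1 (-0.0823 with median-of-ratios, -0.0817 with quantile, -0.0565 with rescaling). Over the libraries left out, Atp6v1a ranged from -0.0616 to 0.000141 and Tfeb from -0.0971 to 0.00197, each turning sign once. The calls of Ctsz (without any library but PTH replicate 3 and Control replicate 2), Cd63 (likewise, and without a filter on low values) and Lamp2 (without PTH replicate 1, PTH replicate 3 or Control replicate 3) were lost. Scarb2, Naglu, Atp6v1a and Atp6v1b2 were called lower under all 4 scalings. A replicate block gave 10 higher, 19 lower and 8600 entries called and changed no call among the lysosomal genes. The numbers do not pair the samples, since same-numbered deviations correlated at -0.079, 0.0016 and -0.038. The cause of each of these shifts was not tested. Control libraries had fewer implied fragments outside type I collagen, and the counting error at a given low level is larger there. The replicate spread of the lysosomal genes was not larger there, with a median coefficient of variation of 2.89% in Control and 4.65% in PTH.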
